A study of Homo sapiens with 6 samples.

Results

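Oxidative phosphorylation is the chain of inner-membrane enzymes with which mitochondria turn the energy of food into ATP. The transcripts of its nuclear-encoded subunits and assembly factors were compared between MO3.13 cells exposed to Klotho and control MO3.13 cells. Genes were taken by symbol: those starting with NDUF, UQCR, SDHA, SDHB, SDHC, SDHD or ATP5, and those of the COX subunits and COX assembly factors with a numbered symbol. Pseudogenes were left out, and a gene needed a probe set annotated with its symbol alone. This gave 79 members among 14232 genes measured by such a probe set. They comprised 34 genes of complex I, 6 of complex II, 5 of complex III, 21 of complex IV and 13 of complex V, spread over 22 chromosomes. By role they were 62 subunits, 16 assembly factors and the inhibitor ATP5IF1. Another 39 genes that the symbol rule names lacked such a probe set and are not analysed here. Some of the 39 are long non-coding RNA genes, such as NDUFB2-AS1, and COX1, COX2 and COX3 among them are mitochondrially encoded. The 39 also include the catalytic subunit ATP5F1B, the complex I core subunit NDUFS1, the iron-sulfur subunits SDHB and UQCRFS1, and COX6A1, so the coverage of each complex was partial. No mitochondrially encoded subunit had such a probe set (0 of 13), and the values describe the nuclear share of the complexes only.

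Klotho is a membrane and circulating protein known as the co-receptor for the hormone FGF23, and the study's title asks how it affects signalling in this line. The Klotho-treated group consisted of 3 arrays of cells given recombinant mouse Klotho at 0.4 µg/mL for 3.5 h in DMEM without serum. The control group consisted of 3 arrays of cells for which the labels name only growth in DMEM with 10% fetal bovine serum. Both groups were MO3.13 cells, and Klotho and the change to serum-free medium cannot be told apart. Values are log2 signals, 1 per probe set and array, so a difference of 1 is a 2-fold change, and signals of different genes cannot be ranked as transcript amounts. The 6 arrays had medians of 6.36 to 6.47 and correlated at r = 0.985 to 0.991 across probe sets. Whether the replicate arrays stem from separate cultures is not in the labels, and the p-values cover only the spread among these samples, possibly a technical one. The labels call MO3.13 an oligodendroglioma line, and it is known in the literature as a fusion of rhabdomyosarcoma cells with oligodendrocytes. Of 11 measured markers of the oligodendrocyte lineage, 1 (CNP, a myelin enzyme) had a probe set in the highest quartile of mean signal, and the myelin genes UGT8 and MOG lay in the lowest quartile. Of 10 measured skeletal muscle markers, 8 lay in the top quartile, among them MYOD1, MYOG and DES. In Klotho-treated cells 7 of the 10 muscle markers and 2 of the 11 oligodendrocyte markers lay below their control mean, 0 past the adjusted threshold in limma, with DES at -0.27; their part in the values below was not tested.

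As background, complex I oxidises NADH and complex II oxidises succinate, both passing electrons to ubiquinone. Complex III hands them on to cytochrome c, complex IV reduces oxygen with them, and complex V, the ATP synthase, uses the proton gradient that complexes I, III and IV build. Complexes I, III, IV and V are mosaics of proteins from nuclear and mitochondrial genes, while the subunits of complex II all come from nuclear genes. The complexes are put together with the help of assembly factors that are not part of the finished enzyme. In many cell types the nuclear genes are described as targets of the transcription factors NRF1, GABP of the ETS family and YY1, with coactivators of the PGC-1 family.

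No member of the 5 complexes passed the test. In limma 0 of 79 had an adjusted p under 0.05, against 0% of all genes, and the smallest adjusted p among the members was 0.998. No member (0 of 79) reached an unadjusted p under 0.05, against 2.07% of all genes (1.11% lower and 0.963% higher in Klotho-treated cells). The differences of the members ran from -0.36 (SDHC) to 0.21 (COX4I2) with a median of -0.03, and the median of all genes was -0.03 too. Of the members, 51 of 79 (64.6%) had a difference below 0, close to the 62.6% of all genes. All Klotho-treated values lay on 1 side of all control values for 3 of 79 members, against 7.89% of all genes (5.3% lower and 2.59% higher). The 3 were COX4I1 and ATP5F1D on the lower side and COX5A on the higher side. The separation of COX5A and of ATP5F1D was lost under each of 3 other scalings (centring on array medians, quantile and cyclic loess), and that of COX4I1 under quantile and cyclic loess, while COX4I2 gained one on the higher side under all 3. In bulk RNA such as this, fewer cells of a type and less RNA per cell cannot be told apart.

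The arrays set narrow bounds on most members. The 95% interval excluded a change beyond 1.5-fold either way for 73 of 79 members (92.4%), against 91.7% of all genes. The 6 members with a wider interval were NDUFA5, NDUFB3 and NDUFB7 of complex I, the membrane anchors SDHC and SDHD of complex II, and the complex IV assembly factor COX14. No member differed by more than 1.5-fold between the group means, as 47 of all genes did. The standard error had a median of 0.12 for members and 0.11 for all genes. The probe sets were mostly bright: 48 of 79 members (60.8%) lay in the highest quartile of mean signal, against 24.6% of all genes, and 4 (NDUFAF2, SDHD, COX7B2 and ATP5MGL) lay in the lowest quartile, where the signal may say little about the transcript.

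**Figure D1:**
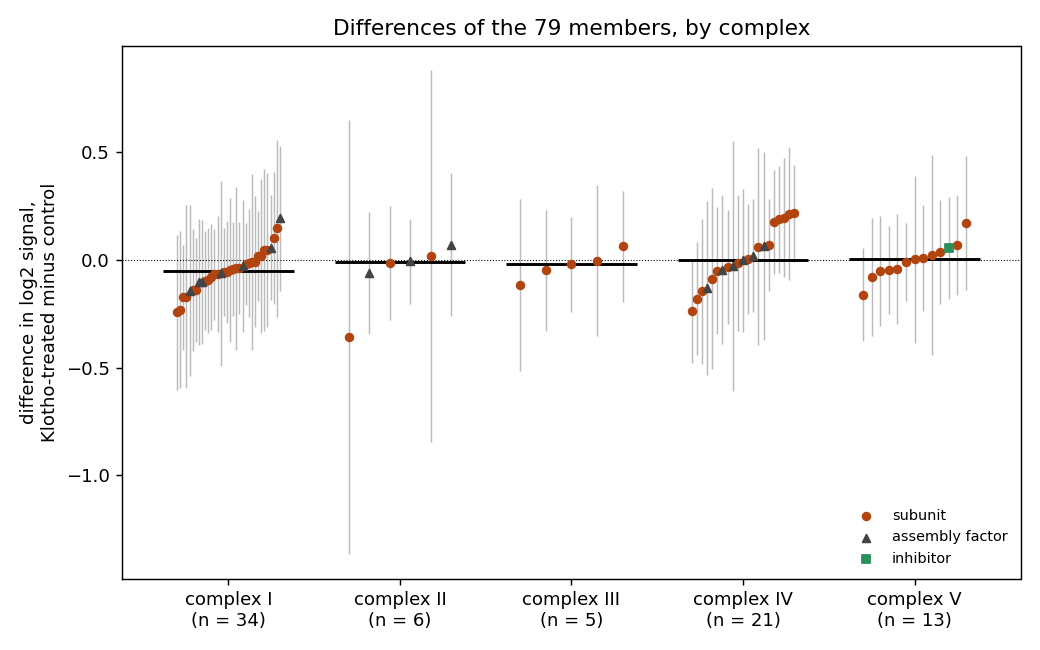
Difference in log2 signal, Klotho-treated minus control, for each of the 79 members, in order within each complex; circles are subunits, triangles assembly factors and the square the inhibitor ATP5IF1. Grey lines are 95% intervals from limma and black bars the median of each complex; the medians lie between -0.05 and 0.00, and SDHC and SDHD have the widest intervals.

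The promoters of the members share sequence features that the choice by symbol did not use. RefSeq promoter windows, from 250 bases before to 50 after the annotated start in GRCh38.p14, were matched for 68 of 79 members and searched on both strands. The NRF1 motif GCGCANGCG stood in 22 of 68 member promoters (32.4%), against 11.0% of 15843 protein-coding promoters. The ETS motif CCGGAAG stood in 17 of 68 (25%), against 14.2%, and the YY1 motif AANATGGC in 18 of 68 (26.5%), against 7.92%. At least 1 of these 3 was present in 41 of 68 (60.3%), against 28.3% of all. The SP motif GGGCGGG went the other way, at 26.5% of member promoters against 44.4% of all, although the GC content was alike (median 62.2% and 62.7%). The cyclic AMP response motif TGACGTNA (4.41% against 3.91%) and the TATA motif TATAAA (11.8% against 9.63%) were at about the level of all promoters. Overlapping matches were kept, as where a palindromic NRF1 stretch matches on both strands, and a match describes letters, not a bound site. These shares carry no test.

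The NRF1 motif was unevenly spread over the complexes. It was present in 4 of 5 promoters of complex II, 3 of 5 of complex III, 5 of 10 of complex V and 8 of 30 of complex I, but in 2 of 18 of complex IV. All 22 of these promoters held a match within the 120 bases before the start. The YY1 motif sat elsewhere: in 12 of its 18 member promoters it lay on the gene's own strand after the start, against 547 of the 1255 protein-coding promoters with this motif. The stretches below come from genes whose values are described next, and all but that of COX4I1 carry at least 1 of the NRF1, ETS and YY1 motifs. Matches after the start fall outside them, such as a YY1 match in UQCRC1 and in NDUFS7. Each stretch is written on the gene's strand and ends at the base before the start, with the matched letters of the 3 motifs in capitals. SDHA, for the flavoprotein subunit of complex II, has 4 NRF1 matches at 166, 117, 68 and 19 bases before the start, each 49 bases from the next. It is 180 bases at chr5:218140-218319, plus strand.
SDHA: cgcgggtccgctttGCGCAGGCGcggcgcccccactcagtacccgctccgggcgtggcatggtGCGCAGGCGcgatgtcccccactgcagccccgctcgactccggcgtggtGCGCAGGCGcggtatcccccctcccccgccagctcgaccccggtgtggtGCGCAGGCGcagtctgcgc
SDHD, for a membrane anchor of complex II, has a palindromic NRF1 match and an ETS match at chr11:112086753-112086872, plus strand.
SDHD: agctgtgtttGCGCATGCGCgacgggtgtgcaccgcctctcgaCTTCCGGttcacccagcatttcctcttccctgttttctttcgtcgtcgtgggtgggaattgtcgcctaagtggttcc
UQCRC1, for a core protein of complex III, has an NRF1 match on the opposite strand at 46 and at 12 bases before the start, at chr3:48609647-48609766, minus strand.
UQCRC1: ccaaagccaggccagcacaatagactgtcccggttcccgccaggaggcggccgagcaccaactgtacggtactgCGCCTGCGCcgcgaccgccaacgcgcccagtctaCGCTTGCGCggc
NDUFS7, for an iron-sulfur subunit of complex I, has 1 NRF1 match at chr19:1383787-1383906, plus strand.
NDUFS7: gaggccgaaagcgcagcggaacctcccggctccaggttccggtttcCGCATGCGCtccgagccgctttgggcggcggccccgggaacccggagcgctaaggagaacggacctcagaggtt
NDUFB7, for a membrane-arm subunit of complex I, has 1 ETS match at chr19:14572067-14572186, minus strand.
NDUFB7: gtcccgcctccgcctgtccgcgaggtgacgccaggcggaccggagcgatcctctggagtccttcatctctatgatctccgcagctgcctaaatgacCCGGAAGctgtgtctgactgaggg
ATP5PF, for a peripheral stalk subunit of complex V, has 1 match of each of the 3 motifs at chr21:25735055-25735174, minus strand.
ATP5PF: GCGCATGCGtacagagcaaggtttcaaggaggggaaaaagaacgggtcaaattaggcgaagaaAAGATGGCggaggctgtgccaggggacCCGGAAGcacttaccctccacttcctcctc
COX4I1, for the ubiquitous isoform of subunit 4 of complex IV, has none of the 3 in this stretch at chr16:85799575-85799694, plus strand. Its ETS match lies on the opposite strand just after the annotated start, outside the letters shown.
COX4I1: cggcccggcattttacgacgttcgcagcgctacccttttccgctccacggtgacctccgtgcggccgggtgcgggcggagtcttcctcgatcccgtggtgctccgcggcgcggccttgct
The members with and without an NRF1 match had about the same difference between the groups, with medians of -0.03 over 22 genes and -0.02 over 46.

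**Figure D2:**
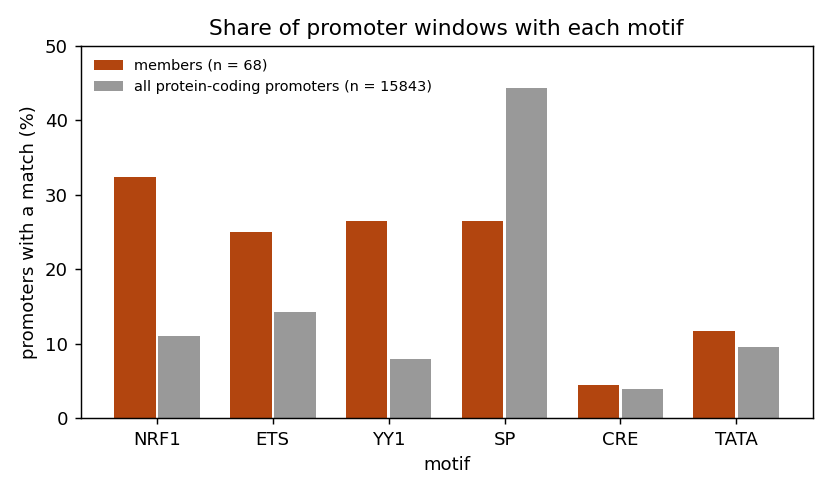
Share of promoter windows (%) that hold each of 6 motifs, in the 68 members with a matched promoter (left bar of each pair) and in all 15843 protein-coding promoters (right bar). The NRF1, ETS and YY1 bars of the members stand above those of all promoters and the SP bar below; the shares are counts of matches with no error bar.

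Complex I, the NADH dehydrogenase, had 26 of 34 members below 0 and a median difference of -0.05, the most negative median among the complexes, with no member past the test. Of all genes 62.6% were below 0, and 71.9% of those in the top quartile of signal, where 22 of the 34 members lay. After centring on array medians, and likewise without control array 1, 17 of 34 were below 0, and after quantile and cyclic loess normalization 18 of 34. Of its core subunits, NDUFV1 (-0.01) and NDUFS3 (-0.04) were nearest to 0, and NDUFS8 (-0.14) and NDUFS7 (-0.17) were lower. NDUFV1, which binds NADH and the flavin, measured 9.42, 9.41 and 9.38 in Klotho-treated cells, against 9.62, 9.33 and 9.31 in control cells. NDUFS7, an iron-sulfur subunit next to the ubiquinone site, measured 7.40, 7.50 and 7.32 in Klotho-treated cells, against 7.64, 7.42 and 7.68 in control cells. The treated values of both genes overlapped their controls, and for NDUFS7 the difference was -0.17 (95% interval -0.42 to 0.07).

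Among the accessory subunits, the largest differences of complex I belonged to NDUFB7 and NDUFA5. NDUFB7, in the membrane arm, measured 8.53, 8.62 and 8.55 in Klotho-treated cells, against 9.00, 8.48 and 8.96 in control cells. NDUFA5, in the matrix arm, measured 8.21, 8.37 and 8.42 in Klotho-treated cells, against 8.83, 8.28 and 8.59 in control cells. For both genes control arrays 1 and 3 lay above every treated array, while control array 2 lay among or below them. The difference of NDUFB7 was -0.24 (95% interval -0.60 to 0.11) and that of NDUFA5 -0.23 (-0.59 to 0.13). On the other side stood NDUFB1, a membrane-arm subunit, with 7.24, 7.01 and 7.17 in Klotho-treated cells, against 7.19, 6.62 and 7.17 in control cells. Here too control array 2 stood apart at the low end, and the difference was 0.15. NDUFA2 of the NADH-oxidising module and the membrane-arm subunit NDUFC1 differed by 0.10 and 0.04. NDUFB3 had the widest spread in complex I by SD over the 6 arrays, at 4.77, 4.97 and 5.16 in Klotho-treated cells and 5.12, 5.45 and 4.85 in control cells. It was the exception among the subunits in that control array 2 was the highest of the 6. NDUFA10 had the narrowest, at 8.15, 8.13 and 8.14 in Klotho-treated cells and 8.20, 8.06 and 8.22 in control cells. The other 18 subunits of complex I, with overlapping groups throughout, differed by -0.14 (NDUFA12, in the matrix arm) to 0.04 (NDUFA1), and 15 of them were below 0.

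The 7 complex I assembly factors had 5 members below 0. NDUFAF4 measured 7.99, 7.94 and 8.12 in Klotho-treated cells, against 7.70, 7.66 and 8.12 in control cells, a difference of 0.19 (95% interval -0.14 to 0.53). Its treated arrays lay together with control array 3 and above the other controls, and without control array 3 the difference was 0.34 and the groups did not overlap. Without that array, 16.0% of all genes had groups that did not overlap. NDUFAF7, the methyltransferase among these factors, differed by 0.06. NDUFAF2 (-0.14), NDUFAF5 (-0.10) and NDUFAF6 (-0.10) lay on the lower side, and NDUFAF2 had the dimmest probe set of all members, between 1.53 and 2.21. NDUFAF1 and NDUFAF3 differed by -0.06 and -0.03.

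In complex II, the succinate dehydrogenase, the subunits behaved unlike each other. SDHA measured 10.53, 10.50 and 10.55 in Klotho-treated cells, against 10.51, 10.37 and 10.74 in control cells, and its difference was -0.02 (95% interval -0.28 to 0.25). The treated arrays of SDHA sat inside the span of the controls. SDHC, a membrane anchor, measured 6.10, 7.01 and 7.90 in Klotho-treated cells, against 7.37, 7.21 and 7.51 in control cells. The treated arrays of SDHC reached 1.79 from lowest to highest and enclosed all controls, which is the widest spread of any member. Its difference of -0.36 (95% interval -1.37 to 0.65) was -0.80 without treated array 3 and 0.09 without treated array 1. SDHD, the other anchor, measured 3.68, 4.64 and 4.94 in Klotho-treated cells, against 4.86, 4.14 and 4.20 in control cells, from a probe set in the lowest quartile of signal. In both anchors treated array 1 was the lowest and treated array 3 the highest of the 6 arrays. The assembly factors were close to equality. SDHAF2, which helps attach the flavin to SDHA, measured 8.94, 8.92 and 8.91 in Klotho-treated cells and 9.04, 8.86 and 8.88 in control cells. SDHAF3 differed by -0.06 and SDHAF4 by 0.07.

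Complex III was represented by 5 subunits, of which 4 were below 0, with a median of -0.02. UQCRC1 measured 8.96, 8.88 and 8.78 in Klotho-treated cells, against 8.95, 8.72 and 9.10 in control cells. UQCRC2, the other core protein, measured 11.55, 11.62 and 11.72 in Klotho-treated cells, against 11.77, 11.58 and 11.61 in control cells. The groups overlapped for both core proteins, with differences of -0.05 and -0.02. UQCRQ, a small subunit, had the widest spread of the complex, with 8.42, 8.53 and 8.36 in Klotho-treated cells, against 8.62, 8.20 and 8.83 in control cells. Its controls lay on either side of the treated arrays, and the difference was -0.12 (95% interval -0.52 to 0.28). UQCR10, another small subunit, was the 1 member above 0, at 0.06, and UQCR11 differed by -0.0044.

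Complex IV, cytochrome c oxidase, held the members that came nearest to the test, and these lay on opposite sides: 11 of 21 members were below 0 and the median was -0.00. COX4I1, the ubiquitous isoform of subunit 4, measured 6.89, 6.93 and 6.97 in Klotho-treated cells, against 7.06, 7.35 and 7.09 in control cells. Every treated array lay below every control array, and the difference was -0.24 (95% interval -0.48 to 0.01). COX4I2, the isoform of subunit 4 known from lung and for its response to low oxygen, measured 5.60, 5.82 and 5.76 in Klotho-treated cells, against 5.48, 5.46 and 5.60 in control cells. Its groups met at 1 value, treated array 1 lying just under control array 3, and the difference was 0.21 (95% interval -0.01 to 0.44). Unadjusted limma p-values were 0.0541 for COX4I1 and 0.0570 for COX4I2, and the adjusted p was 0.998 for both. The log2 ratio of COX4I2 to COX4I1 within an array was -1.29, -1.11 and -1.21 in Klotho-treated cells, against -1.58, -1.89 and -1.49 in control cells. All treated ratios lay above all control ratios, by 0.45 on average, with an exact 2-sided permutation p of 0.1, the smallest that 3 arrays against 3 allow, and 0.4 after adjustment over 4 isoform pairs. A within-array ratio shows unequal differences of the isoforms and not which of them differed.

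The other isoform pairs had smaller differences in ratio with overlapping groups, and the pairs were not tested against each other. The log2 ratio of COX6B2, the testis isoform, to COX6B1 differed by 0.21 between the groups (exact permutation p = 0.3). The ratio of COX7A1, the heart and muscle isoform, to COX7A2 differed by -0.24 (exact permutation p = 0.6), and that of the testis isoform COX8C to COX8A by 0.15 (exact permutation p = 0.3). COX7A1 by itself measured 5.64, 5.46 and 5.29 in Klotho-treated cells, against 5.58, 5.69 and 5.66 in control cells. COX6A2, the heart and muscle isoform of subunit 6A, measured 6.94, 6.88 and 6.67 in Klotho-treated cells, against 6.70, 6.73 and 6.47 in control cells. These muscle isoforms thus lay on opposite sides, at -0.18 and 0.19, each with overlapping groups. COX6B2 differed by 0.17, COX8A by -0.15, COX7A2L, a relative of COX7A2 tied to supercomplexes, by -0.05, COX7A2 by 0.06, COX6B1 by -0.03 and COX8C by 0.00.

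COX5A, a subunit of the matrix side of complex IV, was the 1 member whose treated arrays all lay above the controls. It measured 9.91, 10.15 and 9.87 in Klotho-treated cells, against 9.72, 9.86 and 9.80 in control cells, and differed by 0.19 (95% interval -0.06 to 0.43). The gap between the groups was small, since treated array 3 and control array 2 were 9.87 and 9.86. COX7B had the narrowest spread of the complex and differed by 0.07. Of the 6 assembly factors, COX14 spread most, at 7.05, 7.83 and 7.55 in Klotho-treated cells and 7.83, 7.21 and 7.48 in control cells. Neither group of COX14 held together, and the difference was -0.03. COX10 and COX15, which make haem A for the enzyme, differed by 0.02 and -0.05. COX16 (-0.13) and COX20, a chaperone of COX2 (0.06), also had overlapping groups, and a second, dimmer probe set of COX20 gave -0.02. Of the rest of complex IV, COX6C differed by -0.09, COX5B by -0.01, the testis isoform COX7B2 by 0.21 and the insertion factor COX18 by -0.0015.

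**Figure D3:**
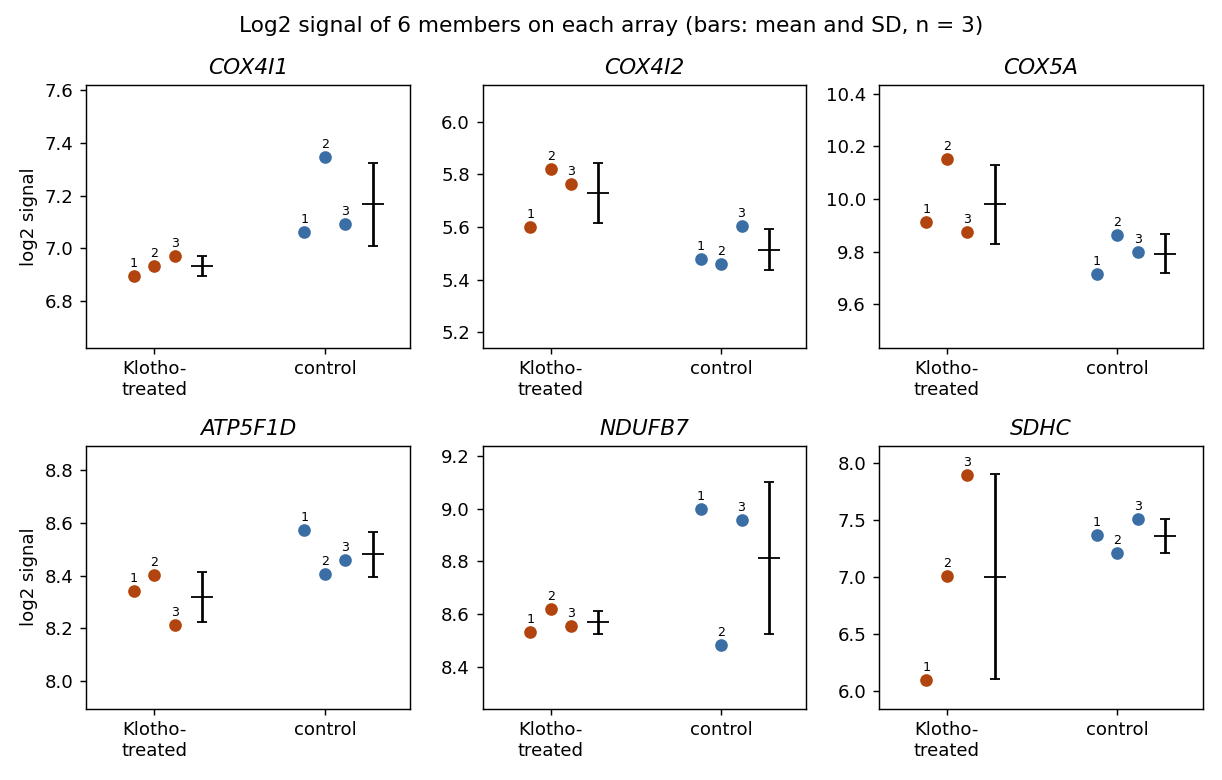
Log2 signal of 6 members on each array, with Klotho-treated arrays left and control arrays right, array numbers above the points, and the mean and SD (n = 3) beside them; axes differ between panels. The groups do not overlap for COX4I1, COX5A and ATP5F1D; control array 2 of NDUFB7 lies apart from the other controls, and the treated arrays of SDHC spread from 6.10 to 7.90.

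Complex V, the ATP synthase, had 6 of 13 members below 0 and a median of 0.00. ATP5F1A, the alpha subunit of the catalytic head, measured 11.15, 11.07 and 10.93 in Klotho-treated cells, against 11.06, 10.89 and 11.11 in control cells. ATP5F1C, the gamma subunit that forms the rotor shaft, measured 11.70, 11.63 and 11.61 in Klotho-treated cells, against 11.74, 11.53 and 11.47 in control cells. Both overlapped, with differences of 0.04 and 0.07. ATP5F1D, the delta subunit of the rotor, measured 8.34, 8.40 and 8.21 in Klotho-treated cells, against 8.58, 8.41 and 8.46 in control cells. Its treated arrays all lay below the controls, with treated array 2 and control array 2 next to each other, and the difference was -0.16 (95% interval -0.38 to 0.06).

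The 3 genes for the c subunit of the membrane ring lay on both sides of 0. ATP5MC3 measured 10.17, 10.18 and 9.96 in Klotho-treated cells, against 9.84, 9.80 and 10.17 in control cells, and differed by 0.17. Control array 3 of ATP5MC3 lay with the treated arrays, and without it the difference was 0.29 and the groups did not overlap. The groups of 16.0% of all genes did not overlap in that comparison either. ATP5MC1 and ATP5MC2 differed by 0.01 and -0.05. In the peripheral stalk, ATP5PF had the narrowest spread of all members, with 7.89, 7.86 and 7.84 in Klotho-treated cells, against 7.94, 7.84 and 7.83 in control cells. ATP5PB and ATP5PO, of the same stalk, differed by -0.08 and -0.05. ATP5MGL, a relative of subunit g, had the widest spread of the complex, between 4.28 and 4.92, from a probe set in the lowest quartile. ATP5IF1, which blocks the enzyme from running backwards, measured 8.17, 8.08 and 7.99 in Klotho-treated cells, against 8.08, 7.88 and 8.12 in control cells. Its difference of 0.05 had a 95% interval of -0.18 to 0.29. ATP5PD, of the stalk, and the small membrane subunit ATP5MJ differed by -0.04 and 0.0013.

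What most members did share was a low control array 2. Control array 2 was the lowest of the 3 controls for 63 of 79 members (79.7%), against 48.2% of all genes and 66.6% of genes in the top quartile of signal. By complex this held for 31 of 34 members of complex I, 6 of 6 of complex II, 5 of 5 of complex III, 13 of 21 of complex IV and 8 of 13 of complex V. The shares of complexes IV (61.9%) and V (61.5%) were below that of top-quartile genes. The other controls had no common order: control array 1 was the highest control for 40 of 79 members (50.6%) and control array 3 for 32 (40.5%). For all genes these shares were 45.8% and 30.8%. Control array 2 was the lowest of all 6 arrays for 38 of 79 members, against 3278 of 14232 genes and 1331 of 3497 genes in the top quartile. Control array 1 was the highest for 34 of 79 members, against 4815 of 14232 genes and 1748 of 3497 genes in the top quartile. The median deviation of the members from their own means was -0.00, -0.00 and -0.02 on Klotho-treated arrays 1 to 3, against 0.12, -0.14 and 0.06 on control arrays 1 to 3. The treated arrays therefore lay between the controls. All genes together showed a smaller range, with -0.04, -0.01 and 0.00 on the treated arrays and 0.05, -0.03 and 0.02 on the controls. Genes of the top quartile gave -0.07, -0.02 and 0.04 on the treated arrays and 0.11, -0.07 and 0.03 on the controls. They put control arrays 1, 3 and 2 in the order of the members' medians but also spread the treated arrays, which the pooled medians of the members did not. By complex, the treated medians ran from -0.08 to 0.00 in complex II, -0.05 to 0.03 in complex III and -0.03 to 0.03 in complex V. In complexes I and IV they ran from -0.03 to -0.01 and from -0.00 to 0.01.

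Measured against the mean of control arrays 1 and 3, control array 2 was offset by a median of -0.23 for the members, with 69 of 79 (87.3%) below 0. The same offset was -0.07 for all genes (65.1% below 0) and -0.14 for genes in the top quartile (87.3% below 0). For the 48 members in that quartile it was -0.25, with 45 below 0. The most negative offsets were those of COX7A2 (-0.64), NDUFB1 (-0.56), NDUFAF1, an assembly factor of complex I (-0.54), UQCRQ (-0.52), NDUFB7 and NDUFAB1, the mitochondrial acyl carrier protein (each -0.50). The exceptions with the largest positive offsets were NDUFB3 (0.47), COX4I1 and COX7B2 (each 0.27). Members with an NRF1 match in the promoter had a median offset of -0.27, and those without one -0.21. The within-group SD of the members was smaller in the Klotho-treated group for 56 of 79 (70.9%), against 55.1% of all genes. Its median was 0.11 for Klotho-treated arrays and 0.16 for control arrays, while all genes had 0.11 and 0.12. Genes in the top quartile also had a smaller median SD in the treated group, at 0.09 against 0.13. For the 48 members in that quartile the medians were 0.09 and 0.17. COX8C, a dim member, had the smallest treated SD of the members, with 5.04, 5.05 and 5.04 in Klotho-treated cells, against 5.20, 4.85 and 5.06 in control cells. No test was made of this pattern, which was noticed in these values, and what sets control array 2 apart was not tested.

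**Figure D4:**
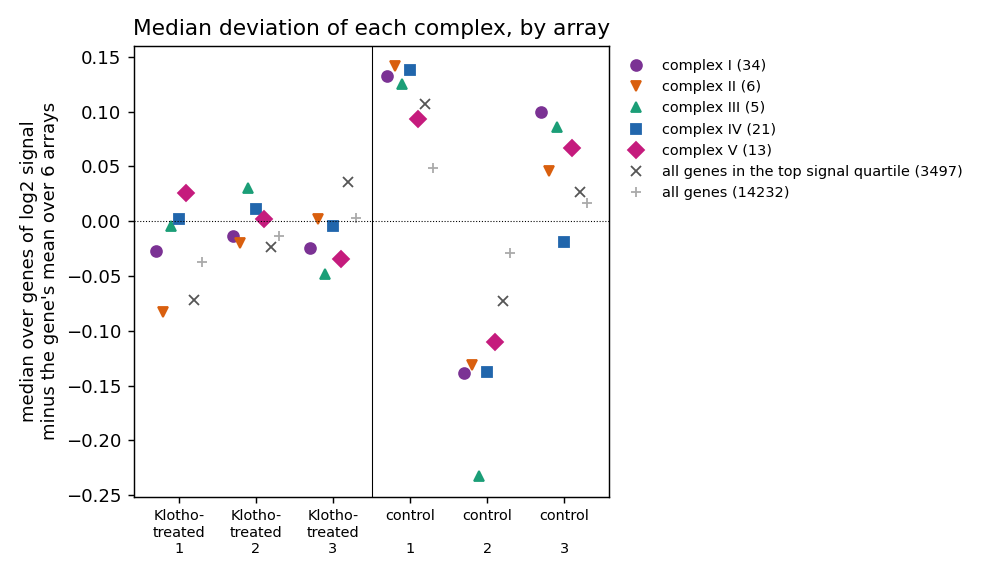
Median over the genes of each complex of the deviation of log2 signal from the gene's own mean over the 6 arrays, by array, Klotho-treated arrays left; crosses and plus signs are all genes in the top signal quartile and all genes. The complexes lie between -0.08 and 0.03 on the treated arrays, between 0.09 and 0.14 on control array 1 and between -0.23 and -0.11 on control array 2.

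The sign of the members' median depended on which control arrays were in. Without control array 2, 67 of 79 members were below 0 with a median of -0.10, against a median of -0.06 for all genes, of which 68.4% were below 0. Complex I then had 33 of 34 members below 0 (median -0.13) and complex III 5 of 5 (-0.13). In that comparison 4 members had an unadjusted p under 0.05, namely NDUFB7 (-0.41), NDUFA5 (-0.37), UQCRQ (-0.29) and NDUFS7 (-0.25), against 2.92% of all genes, and the adjusted p of each was 0.866 in limma. Groups did not overlap for 24 of 79 members, against 22.9% of all genes. Without control array 1, 48 of 79 members were instead above 0, with a median of 0.03. All genes then had a median of -0.0067, with 53.0% below 0. Without control array 3, 2 members had an unadjusted p under 0.05, NDUFAF4 (0.34) and ATP5MC3 (0.29), against 1.85% of all genes, and the adjusted p of each was 0.997 in limma. Other scalings of the arrays also moved the count, to 50 of 79 above 0 after centring on the array medians, 46 after quantile normalization and 44 after cyclic loess. All genes moved with them, to 42.7%, 46.8% and 50.3% below 0.

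**Figure D5:**
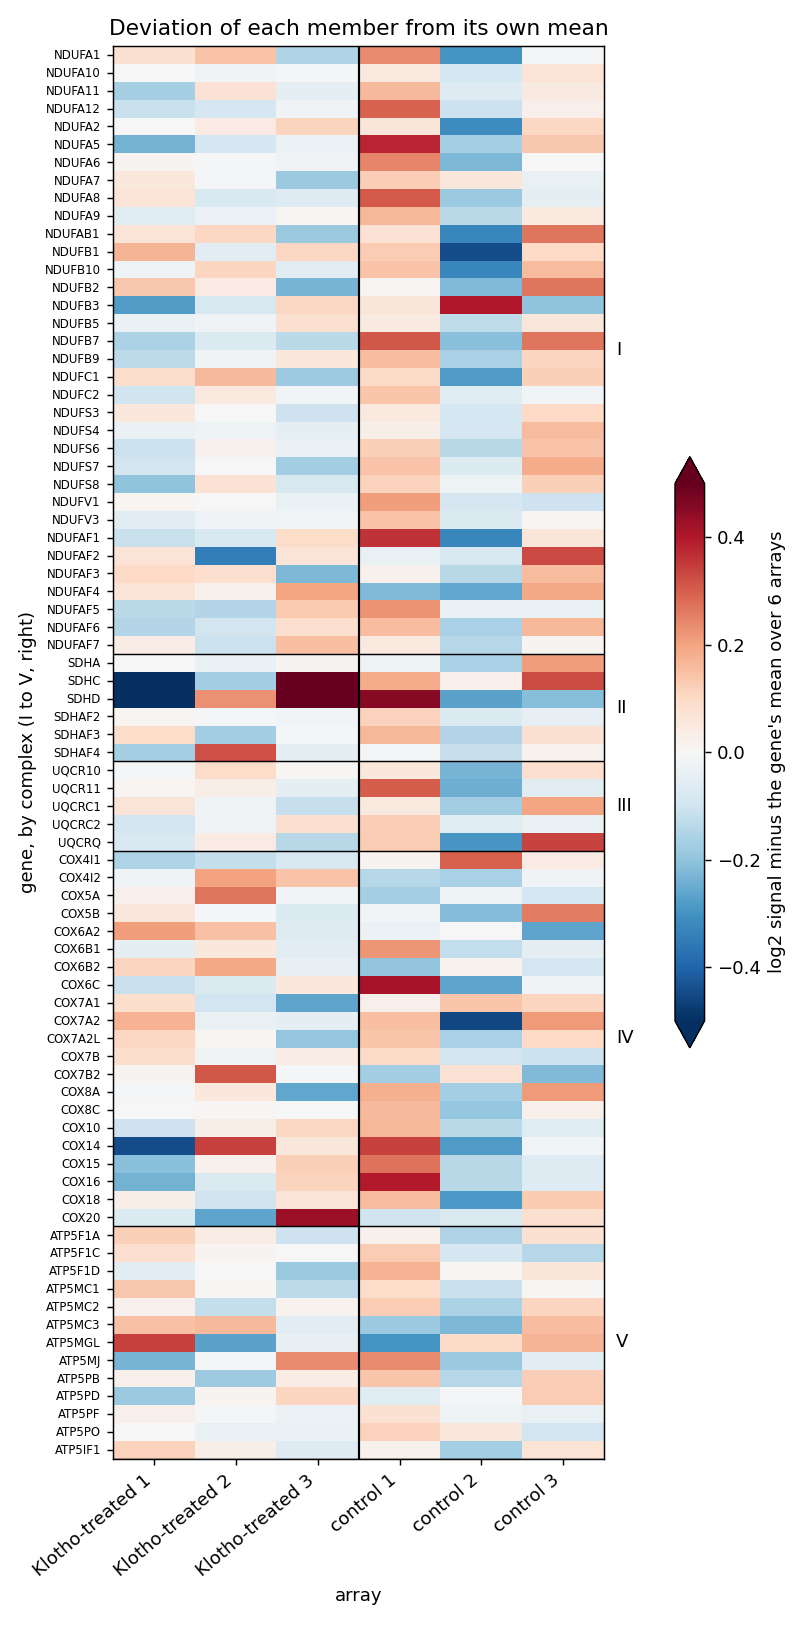
Deviation of log2 signal from the gene's mean over the 6 arrays for each of the 79 members (1 line each, by complex I to V) on the 3 Klotho-treated arrays (left) and the 3 control arrays (right); the colour scale ends at -0.5 and 0.5, which SDHC and SDHD exceed. The column of control array 2 is mostly blue (below the gene's mean) and that of control array 1 mostly red (above it), with NDUFB3 and COX4I1 as the strongest exceptions on control array 2.

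Genes that work with the complexes but carry other names were described in the same way, and 0 of them passed the adjusted threshold in limma. Of 27 measured assembly factors outside the symbol rule, 17 were below 0 (median -0.02). An unadjusted p under 0.05 in limma was reached by 1 of the 27, against 2.07% of all genes. This was UQCC3, an assembly factor of complex III, with 6.74, 6.71 and 6.75 in Klotho-treated cells, against 6.96, 6.83 and 7.06 in control cells. Its groups did not overlap, and the difference was -0.22 (95% interval -0.43 to -0.0051), while limma adjusted its p to 0.998. TTC19, also of complex III, differed by -0.13. Among 14 measured genes of electron carriers and ubiquinone synthesis, 11 were below 0 (median -0.05), with cytochrome c (CYCS) at -0.18 and COQ10A at -0.14. Of 15 measured regulators of mitochondrial gene expression 11 were below 0 (median -0.05), with the nuclear receptor ESRRA at -0.21 and the coactivator PPRC1 at -0.11. Of 15 measured enzymes of the tricarboxylic acid cycle, 14 were below 0 (median -0.04), with IDH2 at -0.11 and MDH2 at -0.08. Groups did not overlap for 1 of the 27 assembly factors (UQCC3), 1 of the 15 tricarboxylic acid cycle enzymes and 0 genes of the other lists, against 7.89% of all genes. None of the counts in these lists carries a test. The counts below 0 stand beside the 62.6% of all genes. That share varied with signal: from the lowest to the highest quartile, 41.3%, 52.0%, 79.4% and 71.9% of all genes were below 0. Of the 15 tricarboxylic acid cycle enzymes, 14 had probe sets in the highest quartile.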

How the data were processed

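Transcripts of 6 RNA samples of MO3.13 cells (3 Klotho-treated, 3 control, grouped by their titles) were measured on exon arrays after Trizol and column purification and amplification from 100 ng, per the labels' protocols. The authors deposited 1 table of log2 values, 1 per probe set and array. RMA is named in the submitters' processing notes; it is a method that corrects background, equalises arrays and summarises probes, with its version, annotation and filters not given in the sources used here. Of 22011 probe sets, all of which were tested, the platform annotation pairs 14432 with 1 gene symbol, 2408 with several and 5171 with none. A gene was represented by its single-symbol probe set of highest mean, which may still bind near-identical copies. No filter on low values was applied, and all 79 members were tested.

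A linear model with moderated variance (limma 3.58.1, R 4.3.3) gave 2-sided p-values, adjusted by Benjamini and Hochberg across the whole table, with a threshold of 0.05. The procedure was tested on simulated data. Lists were described by counts and medians, and isoform ratios by an exact permutation test. Named members are the up to 3 with the smallest p per direction in each complex, subunits and assembly factors apart, those whose groups do not overlap, the widest and narrowest spread per complex, and a set of isoform pairs and catalytic or core subunits, with up to 2 genes of each other list. Members outside this rule were named, after their values were seen, for small counts, the control array offset, promoters or marker checks. The members and lists were chosen with earlier results of these data known. The RefSeq table of GRCh38.p14 covered 79 of 79 members and gave chromosomes and promoter windows. Arrays give no read depth, and their number limits the precision. Alternatives were 3 other scalings, a filter on dim probe sets, variance models, array weights, the replicate number as a block, other choices of probe set and leaving out each array.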

Additional observations from a re-analysis of the deposited data

How the results depend on the processing

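The count of 0 members past the adjusted threshold held in limma under every alternative run, and no called difference changed sign, since none was called. At an unadjusted p under 0.05 the count of members was 1 after centring on array medians, after quantile normalization, after cyclic loess, without dim probe sets and with a trended variance prior, 2 in a fit of 1 probe set per gene, and 6 with array quality weights (COX4I1 lower; COX4I2, COX5A, COX6A2, COX6B2 and COX7B2 higher), where 5.49% of all genes did so. After centring, quantile normalization and cyclic loess, 2.26%, 1.95% and 2.02% of all genes did so. The share of all genes was not computed without dim probe sets, with the trended prior or in the fit of 1 probe set per gene. The counts under those settings therefore have no background to be read against. Leaving out 1 array gave 0 to 4 such members, against 1.31% to 3.69% of all genes. Groups then did not overlap for 5 to 24 members, against 13.3% to 24.3% of all genes. The median difference of complex IV moved between -0.13 (without control array 2) and 0.086 (without control array 1). After quantile normalization, and again after cyclic loess, 1 member had groups that do not overlap: COX4I2, which overlapped as deposited, while COX4I1, COX5A and ATP5F1D no longer qualified. Of all genes, 6.16% and 6.65% had such groups under these 2 scalings. With the replicate number as a replicate block, 0 members had an unadjusted p under 0.05 and the median difference stayed -0.03. Same-numbered arrays deviated from their group means with correlations of -0.18, 0.06 and -0.14. With so few arrays per group, these correlations cannot decide whether the numbers pair the arrays. Of 52 named members, 32 changed sign under at least 1 alternative and 13 had an unadjusted p under 0.05 under at least 1. The cause of these movements was not tested.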
